A study of Mus musculus with 137 samples.

Results

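Gene expression in the duodenal villi of mice that drank 5 ppm Cr(VI) until day 91 was compared with that of untreated mice kept for the same time. Cr(VI) is hexavalent chromium, given as sodium dichromate dihydrate in the drinking water, which mice drank freely. The comparison took 5 libraries at 5 ppm (mice 241, 243, 244, 245 and 246) and 4 untreated libraries (mice 3, 5, 6 and 7), 9 of the 137 libraries in the series, and the labels of tissue, dose and time set which libraries belonged to it. Every animal was a female wildtype B6C3F1 mouse. The series held crypts and villi of 71 mice in 28 groups of tissue, dose and exposure time. The villi were scraped from a formalin-fixed, paraffin-embedded section of each duodenum, so that a library held the epithelium together with the core of the villus. In such bulk material, a change in the number of cells of a type and a change in RNA per cell cannot be told apart.

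The villus is the absorptive surface of the small intestine. Its enterocytes leave the crypt, mature while they climb, take up fat, sugar, peptides and metals through the brush border, and are shed at the tip. Chromate enters cells through anion carriers for sulfate and phosphate and is reduced inside the cell at the expense of thiols such as glutathione. The transcription factor Nrf2 answers a loss of reducing power by inducing the enzymes that make glutathione, recycle thioredoxin and supply NADPH.

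RNA was measured by TempO-Seq, in which a pair of detector oligonucleotides that lie side by side on a transcript is ligated, amplified and counted. Each probe gave a whole-number count, and values below are CPM, the counts relative to library size, after scaling of the libraries. Values are given in the order of mice 3, 5, 6 and 7 for untreated villi and of mice 241, 243, 244, 245 and 246 for villi at 5 ppm. Pairs of means ± SD are exposed against untreated villi unless the order is stated, and "most abundant" refers to probe CPM, which probe efficiency also sets.

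Total counts were 1831513, 1667014, 2513874 and 2678299 in the untreated libraries and 4406006, 3968870, 3081500, 1991023 and 2839530 in the 5 ppm libraries. Depth was higher at 5 ppm on average, but the groups overlapped (two-sided exact permutation p = 0.0794, adjusted over 6 measures p = 0.119). After every library was thinned to 1463938 counts, at least 1 count was found for 13454, 13073, 14400 and 15721 probes in untreated villi. At 5 ppm, 16697, 18825, 18142, 21377 and 21248 probes were found at the same depth. Every 5 ppm library thus showed more probes than every untreated library (exact permutation p = 0.0159, the smallest that 126 arrangements allow, and adjusted p = 0.0317). With at least 5 counts required, the groups overlapped at equal depth (exact permutation p = 0.222, adjusted p = 0.267) but not at full depth (exact permutation p = 0.0159, adjusted p = 0.0317).

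The libraries of mice 245 and 246 stood apart from the other 3 at 5 ppm. Receptors of the olfactory and vomeronasal families, which serve smell in the nose, took 0.783% and 0.482% of their counts, against 0.0282%, 0.0955% and 0.145% in mice 241, 243 and 244. In untreated villi the share was 0.0815%, 0.0691%, 0.052% and 0.0451%. In the plot of libraries by dose, villi at every other dose also showed more probes on average than untreated villi. At equal depth the means were 14162 untreated, 15111.6 at 0.1 ppm and 15906 at 1.4 ppm, and 17167 or more at 20 ppm and above. The part of this difference in the results below was not tested beyond fits that added the number of probes detected as a covariate or left out mice 245 and 246. Because the groups did not overlap in that number, such a covariate and the exposure cannot be fully told apart.

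**Figure D1:**
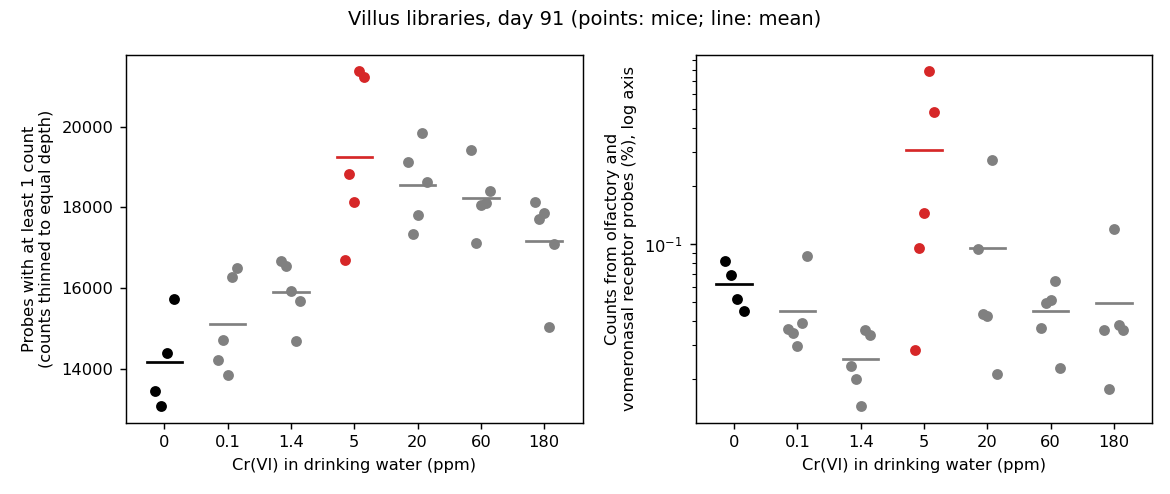
Left, probes with at least 1 count after thinning to equal depth, and right, the percentage of counts from olfactory and vomeronasal receptor probes on a log axis, for each villus library of day 91 by dose in ppm (points are mice, lines are group means). The 5 libraries at 5 ppm sit between 16697 and 21377 probes, all above the untreated libraries, and mice 245 and 246 are highest in both panels at that dose.

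The labels name the villus and no cell type, and markers of its enterocytes were abundant. Villin (Vil1), intestinal alkaline phosphatase (Alpi) and the lipid carriers Fabp1, Fabp2 and Apoa1 were abundant in both groups, and the 12 markers summed to between 48580 and 61150 CPM in untreated villi and between 66230 and 113700 CPM at 5 ppm. In the test described below, Fabp2 alone of the 12 rose and 2 fell, Apob among them. The sums thus do not show a rise across the markers. The markers of Paneth cells, which lie in the crypt base, summed to between 706 and 3569 CPM in untreated villi and between 486 and 5930 CPM at 5 ppm. Pancreatic acinar markers summed to as much as 67510 CPM in an untreated library, so the libraries held more than villus epithelium.

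In all, 26365 probes for 19020 genes passed the count filter. At an adjusted p under 0.1, 2661 genes differed (DEGs), of which 1882 rose and 835 fell. A gene with probes called in opposite directions counts in both, as 56 did, and gene counts by direction below are made in the same way. Counted by probe, 2872 were called, a background of 10.9%, with 7.57% rising and 3.32% falling. Calls depended on abundance. Among probes at 30 CPM or more, 30.9% were called (22.1% up and 8.88% down), and among the rest 5.83% (3.91% up and 1.92% down). Where 1 probe stood for each gene, 8.83% rose and 3.04% fell, and these shares reached 23.5% and 7.92% at 30 CPM or more. The shares below are read against them. The CPM ranges of the 2 groups did not overlap for 6.57% of probes, 4.85% being higher and 1.72% lower at 5 ppm.

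The direction of the bulk of probes rested partly on scaling. The median log2 fold change was 0.43 over all probes and 0.21 over those at 30 CPM or more, and with DESeq2 size factors in place of TMM these medians were 0.26 and 0.04. The split of DEGs moved with it, from 1882 up and 835 down to 1413 up and 1328 down. Of the rising probes, 399 (19.99%) had no count in any untreated library. With the number of probes detected as a covariate, 283 genes passed (160 up and 123 down). Without mice 245 and 246, 736 passed (591 up and 148 down, with 3 in both).

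**Figure D2:**
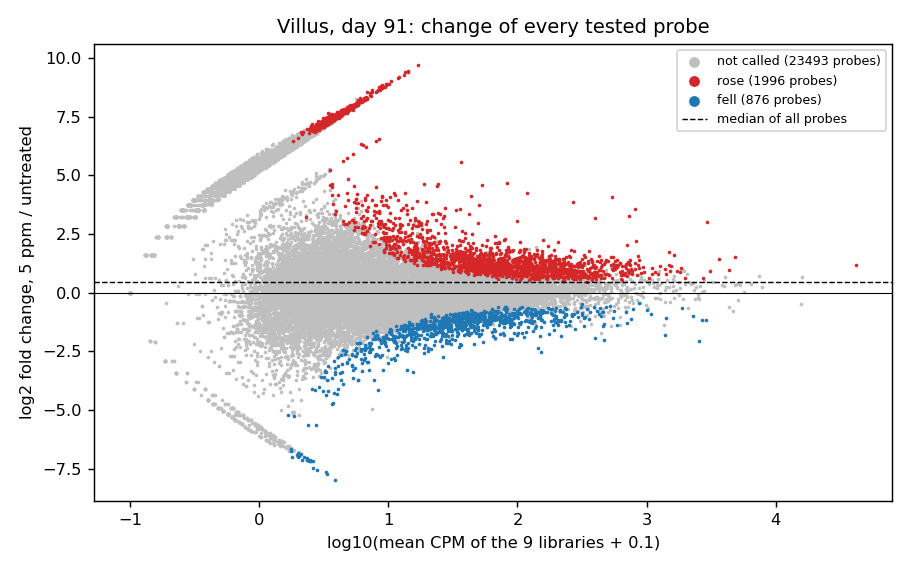
Log2 fold change of each tested probe at 5 ppm over untreated villi (vertical axis) against log10 of its mean CPM plus 0.1 (horizontal axis), with called probes coloured. Called probes lie on both sides of 0 with more above it (1996) than below it (876), and the spread narrows as abundance grows.

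Of 27 Nrf2 targets tested, 8 rose and 1 fell (29.63% and 3.704%). All 9 were among the 24 at 30 CPM or more, of which 33.3% thus rose and 4.17% fell, beside 23.5% and 7.92% of all genes at that level. All 8 that rose serve thiol chemistry or NADPH supply. Nrf2 with a small Maf partner binds the antioxidant response element, whose core is TGACNNNGC. That core was sought on both strands in the RefSeq promoters (GRCm38.p6, 250 bases before to 50 after the gene start). Several genes have more than 1 promoter in the table. The core was present in 9 of 27 promoters of the 22 listed genes found there, in 4 of 9 promoters of risen genes, in 5 of 17 of genes that did not pass, and in 12.4% of all 32851 promoters. The promoters of those 4 risen genes are shown 5′ to 3′ with the match in capitals, since these genes moved together and share the core.
Gclm, chr3:122245307-122245606, plus strand, match on the opposite strand: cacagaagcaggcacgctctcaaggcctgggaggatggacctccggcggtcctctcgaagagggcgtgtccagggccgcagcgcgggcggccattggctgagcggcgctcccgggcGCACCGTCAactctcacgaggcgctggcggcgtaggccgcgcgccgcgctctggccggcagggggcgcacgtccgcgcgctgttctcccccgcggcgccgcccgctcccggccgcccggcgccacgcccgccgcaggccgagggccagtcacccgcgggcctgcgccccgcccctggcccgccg
Me1, chr9:86695865-86696164, minus strand, match on the gene's strand: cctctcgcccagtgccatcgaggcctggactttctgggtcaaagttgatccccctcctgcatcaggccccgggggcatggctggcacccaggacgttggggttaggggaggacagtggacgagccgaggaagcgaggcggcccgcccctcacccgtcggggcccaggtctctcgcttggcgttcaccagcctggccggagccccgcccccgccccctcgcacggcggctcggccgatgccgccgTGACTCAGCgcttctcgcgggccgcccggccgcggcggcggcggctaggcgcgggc
Srxn1, chr2:152105274-152105573, plus strand, match on the opposite strand: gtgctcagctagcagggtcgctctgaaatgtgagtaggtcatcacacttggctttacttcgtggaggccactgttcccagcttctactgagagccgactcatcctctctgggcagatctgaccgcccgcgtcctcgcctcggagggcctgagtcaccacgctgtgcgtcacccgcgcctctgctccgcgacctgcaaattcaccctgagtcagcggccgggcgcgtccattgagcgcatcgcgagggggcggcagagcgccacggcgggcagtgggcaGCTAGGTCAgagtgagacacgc
Txnrd1, chr10:82858956-82859255, plus strand, match on the opposite strand: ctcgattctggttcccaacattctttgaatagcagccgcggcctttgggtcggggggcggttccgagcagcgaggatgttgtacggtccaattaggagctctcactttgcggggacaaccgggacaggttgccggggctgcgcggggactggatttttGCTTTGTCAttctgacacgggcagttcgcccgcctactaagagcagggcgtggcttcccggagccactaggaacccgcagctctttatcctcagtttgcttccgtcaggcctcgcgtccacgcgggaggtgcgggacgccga
A match is a description of the letters in this window and not evidence of binding.

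Both subunits of glutamate-cysteine ligase, the rate-limiting enzyme of glutathione synthesis, rose. Gclc, the catalytic subunit, stood at 8.47, 0, 13 and 22.6 CPM in untreated villi and at 65.9, 42.4, 46.2, 24.8 and 56 CPM at 5 ppm. The lowest exposed library, mouse 245, was just above the highest untreated one (log2 fold change 2.02 ± 0.38, edgeR adjusted p = 0.000232). Gclm, the modifier subunit, stood at 53.8, 107, 117 and 67.3 CPM untreated and at 252, 183, 274, 175 and 412 CPM exposed, with no overlap and mouse 246 highest (log2 fold change 1.59 ± 0.31, edgeR adjusted p = 0.000378). Gsta2, a glutathione transferase of the enterocyte, went from 170.5, 81.8, 526 and 337 CPM to 1267, 1085, 1599, 863 and 1554 CPM. Every exposed library was above every untreated one, although untreated mice differed among themselves by more than the exposed did relative to their means (log2 fold change 2.18 ± 0.44, edgeR adjusted p = 0.000545).

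Txnrd1, the cytosolic thioredoxin reductase, stood at 317, 268, 410.0 and 353 CPM in untreated villi and at 837, 665, 739, 548 and 1038 CPM at 5 ppm. The ranges were apart, again with mouse 245 lowest and mouse 246 highest of the exposed (log2 fold change 1.18 ± 0.25, edgeR adjusted p = 0.001). Srxn1, which repairs oxidised peroxiredoxin, rose from 33.6 ± 4.33 to 72.7 ± 25.8 CPM (mean ± SD, n = 4 and 5, log2 fold change 1.12 ± 0.35, edgeR adjusted p = 0.0298). Me1, a malic enzyme that makes NADPH, rose from 133 ± 33.9 to 305 ± 50.1 CPM (log2 fold change 1.19 ± 0.34, edgeR adjusted p = 0.0166). Neither overlapped between groups. Gsr, glutathione reductase, rose with overlap (852 ± 240.4 against 384 ± 129.6 CPM, log2 fold change 1.15 ± 0.28, edgeR adjusted p = 0.00401), as did the transferase Gstm3 (899 ± 345 against 413 ± 339.9 CPM, log2 fold change 1.12 ± 0.37, edgeR adjusted p = 0.05).

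Cbr1, a carbonyl reductase on the same list, fell (521 ± 203 against 912 ± 190.1 CPM, log2 fold change -0.80 ± 0.29, edgeR adjusted p = 0.0775). The most abundant member, Ugdh, which makes UDP-glucuronic acid, was at 5561 ± 1448 against 4306 ± 327 CPM and did not pass (log2 fold change 0.37 ± 0.29, edgeR adjusted p = 0.43). With the detected probes as a covariate, 5 of the 8 stayed called, namely Gclc (adjusted p = 0.0108), Gclm (0.0424), Gsta2 (0.0689), Txnrd1 (0.04) and Srxn1 (0.0355). Without mice 245 and 246, 9 members rose and none fell by edgeR. Calls were lost without 1 library for Srxn1 (mouse 244 (0.93), log2 fold change in parentheses), Me1 (mouse 5 (1.03)), Gstm3 (mice 244 (0.90), 3 (0.88), 5 (0.75), and 1.78 but called without mouse 6) and Cbr1 (mice 245 (-0.71), 246 (-0.65), 5 (-0.85), 6 (-0.65)).

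The 12 rising genes with the smallest p among those with separate ranges shared no single pathway list, and they spanned RNA handling, chromatin, the endoplasmic reticulum and the cytoskeleton. The separation of their ranges was part of the choice and is not a result. Abhd17b, an enzyme that removes palmitate from proteins, went from 36.4, 67.5, 43.3 and 86.8 CPM in untreated villi to 207, 153, 186, 223 and 269 CPM at 5 ppm. The lowest exposed library was above the highest untreated one (log2 fold change 1.82 ± 0.25, edgeR adjusted p = 1.03e-06). Ero1l, the oxidase that passes electrons from protein disulfide isomerase to oxygen, went from 152, 166, 239 and 264 CPM to 701, 489, 619.7, 360.2 and 832 CPM. Here too the groups were apart, with mouse 245 nearest to the untreated (log2 fold change 1.54 ± 0.25, edgeR adjusted p = 2.06e-05). A second Ero1l probe also rose (log2 fold change 1.99 ± 0.34).

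Hnrnpul2, an abundant nuclear RNA-binding protein, stood at 411, 328, 492 and 641 CPM untreated and 1190.5, 1117, 1185, 1069 and 1496 CPM exposed, with no overlap (log2 fold change 1.37 ± 0.22, edgeR adjusted p = 1.97e-05). Safb, a nuclear protein that binds scaffold attachment regions and RNA, rose (238 ± 38.6 against 89.6 ± 15.8 CPM, log2 fold change 1.41), but its second probe did not (-0.13 ± 0.23). Smg5, a factor of nonsense-mediated decay, rose (358 ± 78.3 against 120.5 ± 38.1 CPM, log2 fold change 1.56). Kmt2d, a histone methyltransferase of enhancers, rose (208 ± 46.8 against 84.2 ± 17.3 CPM, log2 fold change 1.3).

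Of the cytoskeletal genes, Capza2, a capping subunit for actin ends, rose (682 ± 267 against 269.9 ± 81.3 CPM, log2 fold change 1.33). Tes, a focal adhesion protein, rose on the probe that stood for it (517 ± 112 against 192 ± 21.4 CPM, log2 fold change 1.42) and fell on its other probe (-0.87 ± 0.28), so its direction was uncertain. The remaining 4 were Prr14l (log2 fold change 1.77), the vault-associated ADP-ribosyltransferase Parp4 (1.87), the mitochondrial fission regulator Mtfr1 (1.54) and Ccdc59 (1.47). All 12 stayed called with the covariate and without mice 245 and 246, and 11 also passed against 0.1 and 1.4 ppm, the exception being Mtfr1 (log2 difference 0.30, adjusted p = 0.275).

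**Figure D3:**
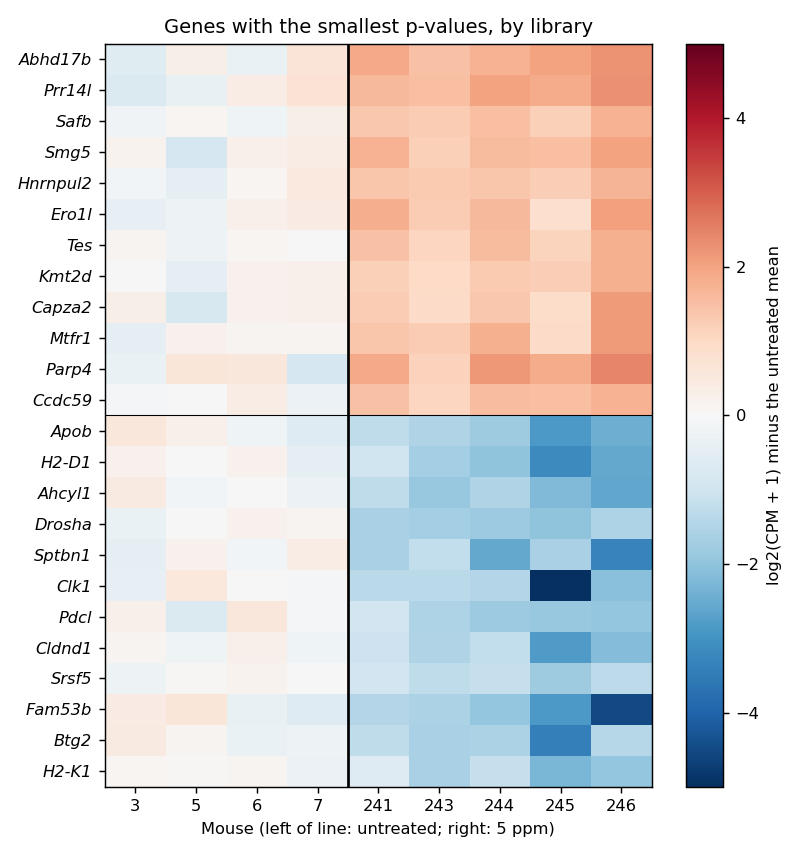
Each cell is log2(CPM + 1) in 1 library minus the untreated mean, for the 12 rising and 12 falling genes with the smallest p (rows) in the 4 untreated libraries (left of the line) and the 5 at 5 ppm (right). The genes were chosen among those whose ranges do not overlap. That choice by itself places the rising genes above the untreated mean in all 5 exposed libraries and the falling genes below it.

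The 12 falling genes, chosen in the same way among those with separate ranges, included fat export, antigen presentation and RNA processing. Apob, the scaffold of the chylomicron, stood at 949.6, 771, 554 and 409 CPM in untreated villi and at 261, 225, 186, 85.6 and 116 CPM at 5 ppm. The highest exposed library was below the lowest untreated one, and mice 245 and 246 were lowest (log2 fold change -1.93 ± 0.33, edgeR adjusted p = 6.64e-05). Its second probe fell as well (log2 fold change -1.77 ± 0.37). Drosha, the nuclease that begins microRNA maturation, was more even, at 49.8, 61.7, 72 and 68.9 CPM untreated and 19.5, 18.7, 17.1, 14.6 and 21 CPM exposed, with a gap between the groups (log2 fold change -1.79 ± 0.34, edgeR adjusted p = 0.000202).

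Factors of splicing were among them. Srsf5, an SR splicing factor, fell (62.8 ± 12.3 against 154 ± 18.2 CPM, log2 fold change -1.29), and so did Clk1, a kinase of SR proteins (22.5 ± 13 against 85.6 ± 25.1 CPM, log2 fold change -1.86). Over the whole list of 40 splicing factors, however, 5 rose and 1 fell. Of the 24 at 30 CPM or more, 16.7% rose and 4.17% fell, beside 23.5% and 7.92% of all genes at that level. Btg2, an antiproliferative p53 target, fell on both of its probes (log2 fold change -1.72 and -1.71). The others were Ahcyl1, a regulator of the inositol trisphosphate receptor (-1.84), Sptbn1, a spectrin chain (-1.97), Pdcl, a cofactor of G-protein assembly (-1.67), Cldnd1 (-1.63) and Fam53b (-2.2). All 12 passed without mice 245 and 246 and against the low doses. With the covariate 8 passed, and H2-D1, Ahcyl1, Fam53b and Btg2 did not.

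Of 20 genes of antigen processing and the MHC, 6 fell and 1 rose (30% and 5%). At 30 CPM or more, 5 of 14 fell (35.7%), beside 7.92% of all genes at that level. H2-D1, a classical class I heavy chain, stood at 221, 191, 218 and 135 CPM in untreated villi and at 94.7, 56.5, 45.8, 19.9 and 30.7 CPM at 5 ppm. Every exposed library was below every untreated one, and mouse 245 was lowest (log2 fold change -1.91 ± 0.34, edgeR adjusted p = 0.000131). A second probe fell too (log2 fold change -1.72 ± 0.41). Tap2, a subunit of the pump that loads peptides, fell from 109 ± 27.1 to 29.8 ± 23.2 CPM without overlap (log2 fold change -1.83 ± 0.40, edgeR adjusted p = 0.00121), and the loading chaperone Tapbp from 105 ± 34.2 to 34.3 ± 25.7 CPM with overlap (log2 fold change -1.56 ± 0.40, edgeR adjusted p = 0.00604).

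H2-K1, the other classical class I chain, fell on the probe with the smallest p (748, 726, 765 and 571 CPM untreated and 449, 228, 311, 142 and 184 CPM exposed, log2 fold change -1.41 ± 0.28, edgeR adjusted p = 0.00037). Its other 3 probes gave log2 fold changes of 0.49, -0.55 and -0.30, of which the middle one passed. The first of these has the most counts and stands for H2-K1 in the list, where it did not pass, so its direction was uncertain. Class I genes are close copies of each other, so that probes may share transcripts between them. The rest that fell were B2m, the class I light chain, and the class II genes H2-Eb1 and H2-DMb1, and Erap1, which trims peptides, rose. Cd74, the class II invariant chain and the most abundant member, did not pass (822 ± 330.1 against 1288 ± 382 CPM, log2 fold change -0.65 ± 0.39, edgeR adjusted p = 0.303). With the covariate, H2-D1 (adjusted p = 0.146), Tap2 (0.17) and Tapbp (0.576) lost their calls, and the H2-K1 probe kept it (0.0636), while no list member passed. Without mice 245 and 246, 2 of the 20 fell and none rose by edgeR, with Tapbp lost (adjusted p = 0.146).

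Most genes of fat absorption did not pass. Among 22 genes of fat absorption and chylomicron assembly, 2 rose and 1 fell, and of the 20 at 30 CPM or more 10% rose and 5% fell, below the 23.5% and 7.92% of all genes at that level. Beside the fall of Apob, Fabp2, the intestinal fatty acid binding protein and one of the most abundant transcripts, stood at 23000.0, 20805, 29423 and 25261 CPM untreated and at 64158, 39916, 67143, 40321 and 68621 CPM exposed, with no overlap (log2 fold change 1.19 ± 0.33, edgeR adjusted p = 0.0145). Acsl5, which activates fatty acids, rose (1995 ± 644 against 872 ± 227 CPM, log2 fold change 1.19 ± 0.34, edgeR adjusted p = 0.0168). Both lost their calls without mouse 5 (log2 fold change 5 (1.03) and 5 (0.98), with the mouse number first), and with the covariate.

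At the brush border, 4 of 17 hydrolases fell and 2 rose (23.53% and 11.76%). Of the 11 at 30 CPM or more, 27.3% fell and 18.2% rose, beside 7.92% and 23.5% of all genes at that level. Mme, the membrane peptidase neprilysin, stood at 2668, 2356, 2615 and 1544 CPM in untreated villi and at 1249.5, 622, 757, 287 and 335 CPM at 5 ppm. Each exposed library was below each untreated one, and mice 245 and 246 were lowest (log2 fold change -1.82 ± 0.38, edgeR adjusted p = 0.000725). Enpep, the aminopeptidase for acidic residues, rose, from 423, 314, 539 and 381 CPM to 1323, 822, 1294, 902 and 1777 CPM without overlap (log2 fold change 1.56 ± 0.42, edgeR adjusted p = 0.0113). Mgam, maltase-glucoamylase and the most abundant, did not pass (4618 ± 486 against 5659 ± 1239.6 CPM, log2 fold change -0.29 ± 0.26, edgeR adjusted p = 0.503). The covariate ended the calls of Mme and Enpep (adjusted p = 0.204 and 0.267).

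None of 18 transporters of sugar, amino acids and peptides rose and 3 fell, the amino acid carriers Slc7a7, Slc7a9 and Slc3a1. Of 12 carriers of sulfate, phosphate and bicarbonate, 2 rose and 2 fell. At 30 CPM or more, 0% of 10 transporters of sugar, amino acids and peptides rose and 20% fell. Of 9 carriers of sulfate, phosphate and bicarbonate at that level, 22.2% rose and 22.2% fell. Of all genes at that level, 23.5% rose and 7.92% fell. Slc26a6, an anion exchanger of the brush border, stood at 244, 301, 294 and 156 CPM untreated and 134, 73.8, 68.1, 36 and 28.2 CPM exposed, with no overlap (log2 fold change -1.83 ± 0.38, edgeR adjusted p = 0.000698). Slc20a1, a phosphate carrier, rose (88.8 ± 40.1 against 39.6 ± 11.1 CPM, edgeR adjusted p = 0.0214), as did the sulfate carrier Slc26a2 (206 ± 53 against 121 ± 49.9 CPM, log2 fold change 0.78 ± 0.28, edgeR adjusted p = 0.0755). Slc4a4, a bicarbonate cotransporter and the most abundant, did not pass (log2 fold change -0.57 ± 0.37, edgeR adjusted p = 0.349). Calls were lost without 1 library for Slc20a1 (mice 246 (0.90), 5 (0.89)) and for Slc26a2 (any of 6 mice). The covariate ended all 3 calls named here.

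Genes of metal handling mostly did not pass. Of 24 genes for metallothionein, zinc, copper and iron, none rose and 2 fell. Of the 17 at 30 CPM or more, 0% rose and 5.88% fell, beside 23.5% and 7.92% of all genes at that level. Slc39a4, the zinc importer of the enterocyte, fell from 158 ± 34.5 to 62.6 ± 24.1 CPM without overlap (log2 fold change -1.32 ± 0.38, edgeR adjusted p = 0.0177). Cybrd1, the duodenal ferric reductase, stood at 99.7, 7.91, 19.5 and 13.8 CPM untreated and 12.8, 0.565, 0.398, 7.29 and 7.16 CPM exposed. Mouse 3 alone held the untreated mean up, the ranges overlapped, and the call was lost without it (mouse 3 (-1.28), log2 fold change -2.57 ± 0.76, edgeR adjusted p = 0.0219 with it). The zinc exporter Slc30a5 was at 161 ± 11.3 against 106 ± 30.9 CPM (log2 fold change 0.60 ± 0.24, edgeR adjusted p = 0.107) and the ferritin chain Fth1 at 9044 ± 2035 against 5517 ± 1074 CPM (log2 fold change 0.71 ± 0.33, edgeR adjusted p = 0.185), and neither passed. The call of Slc39a4 ended with the covariate (adjusted p = 0.472) and without mice 245 and 246 (0.247).

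Of 32 translation initiation factors, 11 rose and 1 fell (34.38% and 3.13%), and at 30 CPM or more 11 of 21 rose (52.4%, beside 23.5% of all genes at that level). Eif4g2, which supports cap-independent initiation, stood at 101, 79.7, 185 and 235 CPM in untreated villi and 402, 433, 499, 412 and 860.5 CPM at 5 ppm, with no overlap and mouse 246 far above the rest (log2 fold change 1.78 ± 0.31, edgeR adjusted p = 6.76e-05). The helicase Eif4a2 (667 ± 258 against 257 ± 45.9 CPM, log2 fold change 1.37), Eif2s2, the beta subunit of eIF2 (427 ± 90.5 against 186 ± 75.2 CPM, 1.19), and Eif6, which keeps ribosomal subunits apart (1027 ± 235 against 611 ± 80.2 CPM, 0.75), also rose. Eif3f was the member that fell. With the covariate Eif4g2 alone of the 32 passed (adjusted p = 0.0812), and Eif6 lost its call without mouse 5 (0.59).

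Of 31 proteasome subunits, 10 rose and 2 fell (32.26% and 6.45%), and at 30 CPM or more 10 of 20 rose (50%, beside 23.5% of all genes at that level). Psma1 stood at 7.98, 3.17, 24.1 and 25.2 CPM untreated and 81.4, 46.4, 56.9, 90.4 and 68.2 CPM exposed, all exposed libraries being above all untreated (log2 fold change 2.1 ± 0.45, edgeR adjusted p = 0.00118). Psma6 (237 ± 52.9 against 101 ± 29.6 CPM, log2 fold change 1.22) and Psma3 (517 ± 218 against 204 ± 42.9 CPM, 1.34), further subunits of the core particle, rose without overlap. Psmd8, the most abundant, did not pass (log2 fold change 0.39 ± 0.17, edgeR adjusted p = 0.143). None of the 31 passed with the covariate (Psma1, Psma6 and Psma3 at adjusted p = 0.153, 0.336 and 0.413). With DESeq2 size factors in edgeR, 9 of the 31 rose and 5 fell. Psma1, Psma6 and Psma3 passed without mice 245 and 246, where 9 subunits rose and none fell by edgeR.

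Genes of the unfolded protein response were split, with 5 up and 4 down of 24. Of the 15 at 30 CPM or more, 26.7% rose and 26.7% fell, beside 23.5% and 7.92% of all genes at that level. Manf, a secreted factor of the stressed endoplasmic reticulum, stood at 181, 97.1, 189.7 and 193 CPM untreated and 246, 386, 379, 347 and 449 CPM exposed, with mouse 5 lowest and no overlap (log2 fold change 1.12 ± 0.28, edgeR adjusted p = 0.00518). Edem1, which steers misfolded glycoproteins to degradation (333 ± 74.4 against 147 ± 30.5 CPM, log2 fold change 1.17), and the chaperone Calr (486 ± 124 against 189.8 ± 96.7 CPM, 1.35) rose. Hspa5, the master chaperone BiP and the most abundant, did not pass (1887 ± 264 against 1341 ± 225 CPM, log2 fold change 0.49 ± 0.19, edgeR adjusted p = 0.104). Pdia4, Hsp90b1, Sdf2l1 and Xbp1 fell, and Pdia6 and Chac1 were the others that rose. The covariate ended the calls of Manf, Edem1 and Calr. With it 0 of the 24 rose and 3 fell, and without mice 245 and 246, 2 rose and 1 fell. Manf and Calr lost theirs without mouse 5 (0.85 and 1.0), and Edem1 without mice 245 and 246 (adjusted p = 0.103).

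Of 19 histone demethylases 6 rose and none fell by edgeR (31.58%), and of the 7 at 30 CPM or more 5 rose. The median log2 fold change of the 19 was 0.06, and -0.10 with DESeq2 size factors, beside 0.43 and 0.26 over all probes. Kdm2a, which demethylates histone H3, stood at 32.4, 2.11, 27.6 and 37.9 CPM untreated and 109, 61.3, 109, 157 and 174 CPM exposed. The groups were apart, and mouse 5 was near 0 (log2 fold change 2.24 ± 0.39, edgeR adjusted p = 7.66e-05). Jmjd6, a hydroxylase of lysine with reported demethylase activity (119 ± 29.4 against 32.6 ± 16.9 CPM, log2 fold change 1.83), and Kdm5c, which does so at promoters (203 ± 32.9 against 86 ± 21.8 CPM, 1.23), rose without overlap. Kdm3b, Kdm5a and Kdm6a were the others. Kdm2a passed with the covariate (adjusted p = 0.0243), and Jmjd6 (0.113) and Kdm5c (0.13) did not. Of the 19, 2 rose with the covariate and 4 without mice 245 and 246, and none fell by edgeR in either fit.

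Of 30 DNA repair genes 2 rose and none fell by edgeR (6.67%). Most were scarce, with 2 of the 30 at 30 CPM or more, and 3.91% of probes below that level rose. Ercc1, part of an excision nuclease, stood at 3.99, 0, 16.5 and 8.03 CPM untreated and 45.9, 11, 41.4, 8.26 and 28.2 CPM exposed with overlap (log2 fold change 1.83 ± 0.56, edgeR adjusted p = 0.0288), and Polb, the polymerase of base excision repair, was called with overlap (18.3 ± 4.6 against 6.38 ± 8.36 CPM, log2 fold change 1.43 ± 0.52, edgeR adjusted p = 0.0749). Xrcc4, of end joining, did not pass (log2 fold change 1.36 ± 0.53, edgeR adjusted p = 0.104), nor did Xrcc1, the most abundant (log2 fold change 0.21 ± 0.33, edgeR adjusted p = 0.722). Ercc1 lost its call without mouse 3 or 5 and Polb without any of 6 mice (and 2.87 but called without mouse 7), and neither passed with the covariate. Of 30 cell cycle genes, Mcm2 and Tk1 rose and none fell (6.67% up, beside 8.83% of all genes).

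Of 21 p53 targets, 4 rose and 1 fell. Of the 11 at 30 CPM or more, 27.3% rose and 9.09% fell, near the 23.5% and 7.92% of all genes at that level. Mdm2, the ubiquitin ligase that restrains p53, stood at 5.48, 3.69, 20.3 and 18 CPM untreated and 19.2, 33.9, 49.8, 46.7 and 108 CPM exposed, with 1 exposed library inside the untreated range (log2 fold change 2.0 ± 0.43, edgeR adjusted p = 0.00108), and passed with the covariate (adjusted p = 0.0953) but not without mice 245 and 246 (0.106). Ei24 rose without overlap (341 ± 39.9 against 203 ± 32.6 CPM, log2 fold change 0.75) and lost its call with the covariate, and Btg2 was the one that fell.

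Of 26 interferon-induced genes, 3 rose and 1 fell. Of the 14 at 30 CPM or more, 14.3% rose and 0% fell, beside 23.5% and 7.92% of all genes at that level. Gbp2, a guanylate-binding protein, stood at 3.49, 4.75, 12.3 and 8.8 CPM untreated and 73.4, 26.3, 48.6, 48.1 and 69.5 CPM exposed, every exposed library being above every untreated one (log2 fold change 2.79 ± 0.61, edgeR adjusted p = 0.00119). Mx1, a dynamin-like antiviral protein, was seen in untreated mouse 6 only, at 0, 0, 14.6 and 0 CPM, and in all exposed libraries at 42.7, 10.5, 34.6, 32.6 and 38.7 CPM (log2 fold change 2.94 ± 0.70, edgeR adjusted p = 0.00343), so that without mouse 6 no untreated count remained. Both passed with the covariate (adjusted p = 0.054 and 0.0181). Irf8 rose (207 ± 55.4 against 113 ± 16.7 CPM, log2 fold change 0.87 ± 0.30, edgeR adjusted p = 0.0567) and lost its call with the covariate and without any of mice 246 (0.75), 3 (0.83), 5 (0.75), 7 (0.81). Irf1, the most abundant, did not pass (log2 fold change -0.21 ± 0.24, edgeR adjusted p = 0.615).

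Of 21 genes of inducible epithelial defence, 3 rose and none fell. Of the 8 at 30 CPM or more, 25% rose, near the 23.5% of all genes at that level. Reg3g, an antibacterial lectin, was high in 2 exposed mice only, at 725, 280.4, 10.7, 2.43 and 4.21 CPM against 0.997, 7.91, 18.4 and 14.2 CPM untreated. The other 3 exposed libraries lay within the untreated range, so the high mean came from mice 241 and 243 (log2 fold change 4.26 ± 1.09, edgeR adjusted p = 0.00651, and 2.82 without mouse 241). The cytokine Tslp stood at 2.4, 0, 5.57, 12.2 and 10.1 CPM exposed and 0, 0, 0 and 0.383 CPM untreated (log2 fold change 5.21 ± 2.02, edgeR adjusted p = 0.0992), and Nlrp6, an inflammasome sensor, at 409 ± 60.6 against 259 ± 54 CPM (log2 fold change 0.66 ± 0.25, edgeR adjusted p = 0.0995). Tslp lost its call without any of 7 mice and Nlrp6 without any of 8, and both with the covariate. Reg1, the most abundant, did not pass (log2 fold change -0.76 ± 0.50, edgeR adjusted p = 0.352).

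Among markers of other cells in the villus core, those of plasma cells and smooth muscle held most of the calls. Of 12 plasma and B cell markers 3 rose and none fell. Of the 5 at 30 CPM or more, 40% rose, beside 23.5% of all genes at that level. Igkc, the kappa light chain constant region, stood at 1959, 2648, 3143 and 1619 CPM untreated and 4239.5, 7926, 9004, 5534 and 7294 CPM exposed, with no overlap (log2 fold change 1.54 ± 0.29, edgeR adjusted p = 0.000243). Jchain, which joins secreted IgA, stood at 531, 704, 969.8 and 369.9 CPM and 1402, 2688, 2554, 1743 and 2388 CPM, likewise apart (log2 fold change 1.74 ± 0.38, edgeR adjusted p = 0.00118). Sdc1, a plasma cell surface proteoglycan that epithelium also carries, rose (23.3 ± 6.79 against 5.76 ± 8.74 CPM, log2 fold change 2.14 ± 0.61, edgeR adjusted p = 0.0181) and lost its call without mouse 6 (1.68), with 3.72 and a call without mouse 5. The 12 markers summed to between 5129 and 11400 CPM untreated and between 9548 and 16870 CPM exposed, so the sums overlapped. With the covariate Igkc passed (adjusted p = 0.0696), and Jchain (0.292) and Sdc1 (0.115) did not.

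Of 9 smooth muscle markers 3 fell and 1 rose. Of the 6 at 30 CPM or more, 33.3% fell and 16.7% rose, beside 7.92% and 23.5% of all genes at that level. Myh11, the muscle myosin, stood at 42.4, 128, 78.9 and 207 CPM untreated and 32.3, 41, 33, 22.9 and 19.4 CPM exposed, without overlap (log2 fold change -1.92 ± 0.48, edgeR adjusted p = 0.00559). Actg2 fell (12.2 ± 8.89 against 51 ± 42.7 CPM, log2 fold change -2.06 ± 0.57, edgeR adjusted p = 0.0143) and so did Cnn1 (25.5 ± 14.8 against 85.8 ± 42.9 CPM, log2 fold change -1.75 ± 0.53, edgeR adjusted p = 0.0267), while Mylk, which other cells use too, rose (914 ± 303 against 476 ± 176 CPM, log2 fold change 0.94 ± 0.34, edgeR adjusted p = 0.0698). The sum of the 9 ran from 494 to 1646 CPM untreated and from 912 to 1646 CPM exposed. Leaving out mice 245 and 246 ended all 4 calls, and the covariate left only Actg2 (adjusted p = 0.0566). Without 1 library, Actg2 was lost (mouse 7 (-1.48)), Cnn1 (mice 246 (-1.47), 5 (-1.54)) and Mylk (any of 6 mice). No pancreatic acinar marker of 18 was called, but their sum ran from 53 to 67510 CPM untreated and from 24 to 34150 CPM exposed. The part of any of these cells in the other results was not tested.

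Receptors that serve smell in the nose were counted as well. Of 705 olfactory receptors 22 rose and 1 fell (3.12% up), and of 215 vomeronasal receptors 41 rose and none fell by edgeR (19.1%). All olfactory and all but 1 of the vomeronasal receptors were under 30 CPM, where 3.91% of probes rose. Without mice 245 and 246 no olfactory receptor passed and 2 vomeronasal receptors rose, and with the covariate neither family had a call by edgeR. With only the compared groups in the fit, 2 olfactory and 8 vomeronasal receptors rose. Against 0.1 and 1.4 ppm, 239 olfactory and 113 vomeronasal receptors were higher, where 16.8% of all probes were higher. Calls over all genes also went from 2661 to 736 without mice 245 and 246. What part those 2 libraries had in the receptor calls was not tested.

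**Figure D4:**
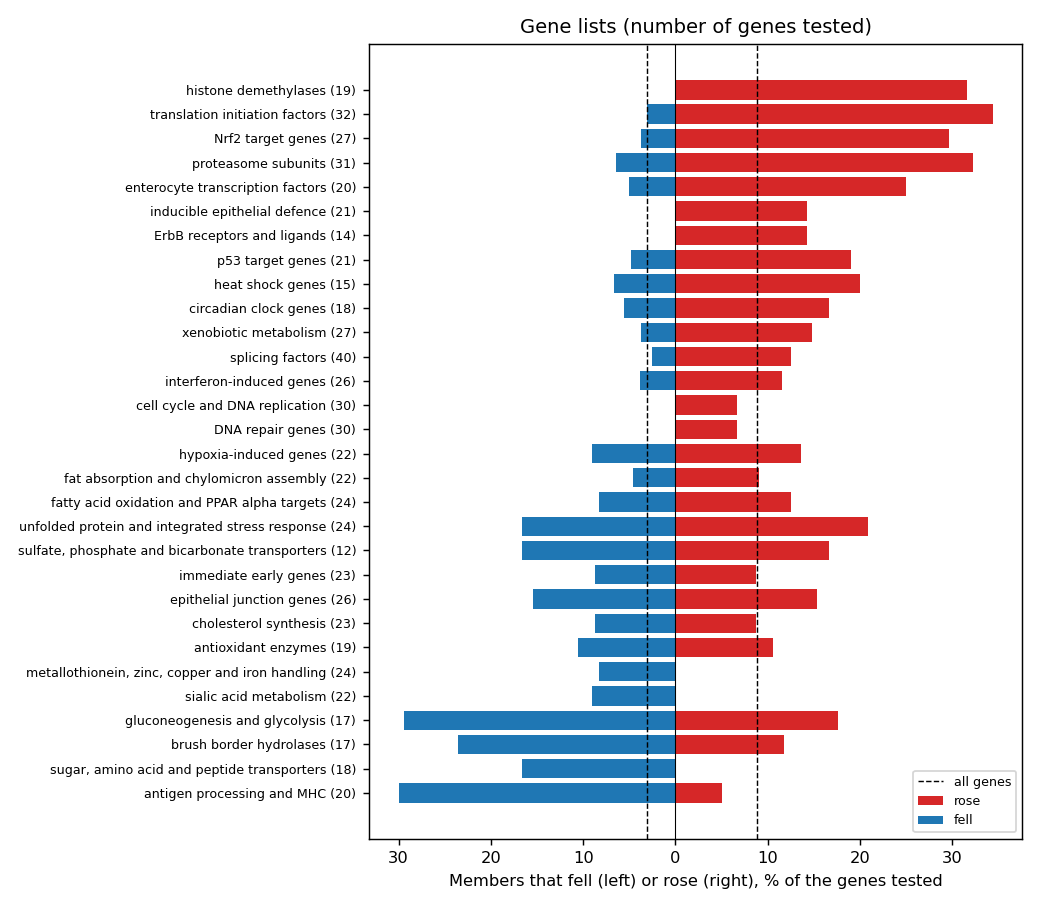
For each gene list, the percentage of tested members that fell (left) and rose (right) at 5 ppm, with the number of genes tested beside its name. Translation initiation factors, proteasome subunits, histone demethylases and Nrf2 targets reach 29.63% to 34.38% rising, against 8.83% of all genes and 23.5% of those at 30 CPM or more, and antigen processing has 30% falling, against 3.04% and 7.92%.

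Some calls were of probes without counts in 1 group, for which a fold is a lower bound against 3 counts per library. Mss51 had no count in untreated villi and 51, 11, 60, 36 and 52 counts at 5 ppm, at least 10.1-fold higher (edgeR adjusted p = 0.000233). Robo1, a receptor for Slit ligands, had none and 42, 59, 37, 19 and 35 counts, at least 8.42-fold higher (adjusted p = 0.000698). Atxn7l1 (at least 10.8-fold) and Rpl21-ps4, a processed copy of a ribosomal protein gene whose parent may share its reads (at least 19.1-fold), were called in the same way. All exposed libraries held counts of these probes. Against 0.1 and 1.4 ppm, where the probes were seen, Atxn7l1 did not pass (log2 difference 0.88, adjusted p = 0.199), while Mss51 (1.05, 0.0864), Robo1 (1.33, 0.0507) and Rpl21-ps4 (3.39, 0.000176) did. With the covariate Rpl21-ps4 did not pass (adjusted p = 0.3). Other probes of Atxn7l1 and Rpl21-ps4 had counts in untreated villi, so these folds hold for the single probes and not for the genes. Those of Atxn7l1 did not pass (log2 fold change -1.03 and 0.11). That of Rpl21-ps4 rose less, from 392.9 to 985.8 CPM (log2 fold change 1.32).

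In the other direction, Il1b, the inflammatory cytokine, had 19, 15, 16 and 15 counts in untreated villi and none at 5 ppm, at least 5.04-fold lower (edgeR adjusted p = 0.0124). Bckdk, a kinase of branched-chain amino acid breakdown, was in all 4 untreated libraries at 14, 2, 10 and 33 counts (at least 4.22-fold lower). Spag5, a spindle protein, was in untreated mice 5 and 6 only (at least 5.87-fold lower), and Nsf, the ATPase of vesicle fusion, in mice 3 and 7 only (at least 4.96-fold lower). Another probe of Nsf rose, so that no direction can be given to the gene. Bckdk and Spag5 each had another probe with counts at 5 ppm. That of Bckdk did not pass (log2 fold change -0.89), and that of Spag5 fell (-0.97). Leaving out mouse 7 ended the call of Bckdk, and leaving out mouse 3 that of Nsf. Il1b did not pass against the low doses (adjusted p = 1), and Il1b and Spag5 did not pass with the covariate.

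Against villi at 0.1 and 1.4 ppm, a contrast with no untreated library in it, 5315 genes passed (4153 higher and 1270 lower at 5 ppm, with 108 in both, 22.1% of probes, 16.8% higher and 5.25% lower). Of the genes called against untreated villi, 1884 passed here in the same direction. Gclc (log2 difference 0.66, edgeR adjusted p = 0.0698), Gclm (0.71, 0.0317) and Gsta2 (0.92, 0.0453) were higher at 5 ppm than at the low doses. Over the 27 Nrf2 targets 6 were higher and 4 lower, the latter Cbr1, Gstm1, Abcc2 and Abcc3, with a median log2 difference of -0.07, beside 0.46 over all probes and 0.09 over those at 30 CPM or more. Apob (-1.42, 0.000337), H2-D1 (-1.55, 0.000176) and Mme (-1.6, 0.000439) were lower. Srxn1 (0.23, 0.56) and Me1 (0.35, 0.36) did not pass. This contrast leaned on mice 245 and 246 more than any other, since 229 genes passed without them (192 higher and 37 lower), 2947 without mouse 245 alone and 2649 without mouse 246 alone.

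Values at the other doses are given side by side, since every dose was compared with the same untreated libraries. Gsta2 went from 279 ± 196 CPM untreated through 705 ± 313 at 0.1 ppm, 646 ± 70.3 at 1.4 ppm and 1274 ± 312 at 5 ppm to 2508 ± 782 at 20 ppm, then stood at 2459 ± 344 at 60 ppm and 1907 ± 595 at 180 ppm. Gclm was at 159 ± 29.3, 159 ± 17.5, 259 ± 95.4, 334 ± 104, 178 ± 29.2 and 115 ± 13.1 CPM from 0.1 to 180 ppm, highest at 20 ppm, and 180 ppm did not pass against untreated (adjusted p = 0.474). Gclc was at 32.4 ± 8.51, 28.5 ± 9.88, 47.1 ± 15.4, 80.1 ± 20, 52.3 ± 13.9 and 42.9 ± 11.8 CPM at those doses, and Ero1l at 278 ± 72.7, 359.9 ± 41.6, 600.2 ± 183, 1054 ± 257, 945 ± 135 and 715 ± 143 CPM. Both were highest at 20 ppm.

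Of the genes that fell, Apob and H2-D1 stayed low from 5 ppm on. Apob was at 421 ± 121, 524 ± 132, 175 ± 73.2, 111 ± 43.9, 94.9 ± 11.2 and 125 ± 51.5 CPM from 0.1 to 180 ppm. H2-D1 was at 156 ± 77.6, 143 ± 51.1, 49.5 ± 28.9, 44 ± 20.7, 43.1 ± 15.4 and 42.3 ± 13.5 CPM at the same doses. For the 6 genes plotted, neither 0.1 nor 1.4 ppm passed against untreated villi, and 5, 20 and 60 ppm did.

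**Figure D5:**
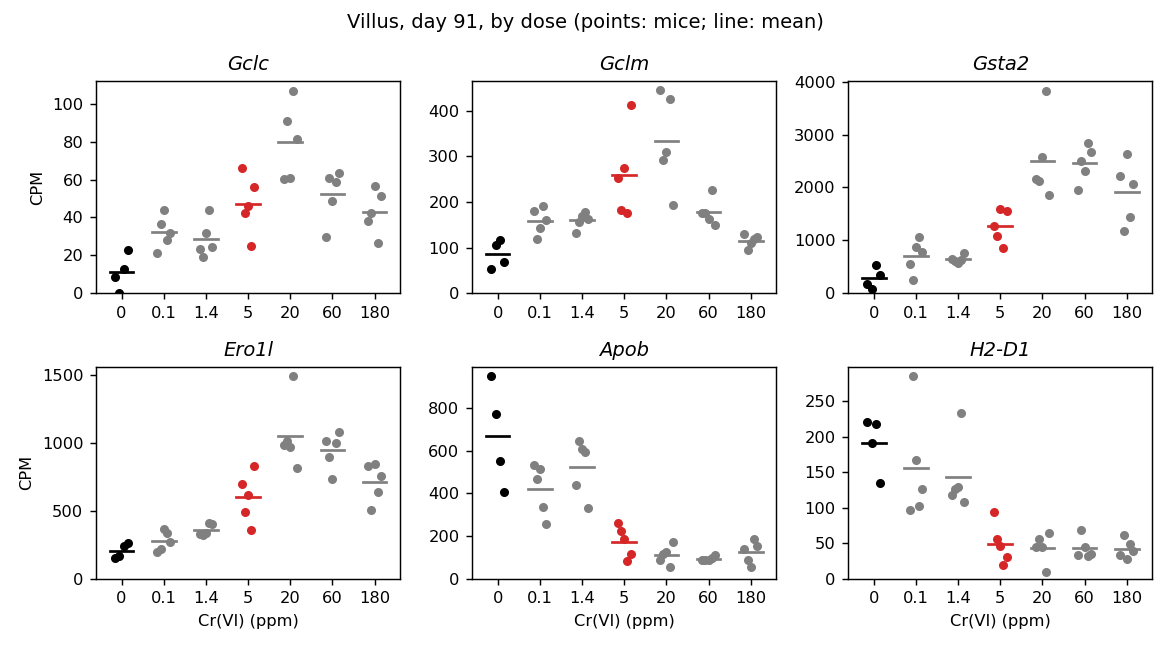
CPM of Gclc, Gclm, Gsta2, Ero1l, Apob and H2-D1 in each villus library of day 91 by Cr(VI) dose in ppm (points are mice, lines are group means, axes start at 0). The first 4 genes are highest at 20 ppm, and Apob and H2-D1 lie below their untreated values from 5 ppm upward.

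In crypts of day 91 at 5 ppm the same genes differed less from their untreated crypts. The main fit, which does not pair the tissues of a mouse, did not show a difference between them. Gclc was at 17.2 ± 5.24 against 14.5 ± 6.05 CPM (log2 fold change 0.31, edgeR adjusted p = 0.831), Gsta2 at 754 ± 251 against 446 ± 169 CPM (0.76, 0.673), Apob at 76.6 ± 14.7 against 160.1 ± 59.4 CPM (-1.07, 0.482) and H2-D1 at 28.4 ± 5.09 against 64.8 ± 17.2 CPM (-1.2, 0.482) in crypts. The effect in villi minus the effect in crypts passed for 0 genes by edgeR (0% of probes, smallest adjusted p = 0.286, 2053 probes at an unadjusted p under 0.05). Crypt and villus of a mouse come from adjacent sections. The edgeR fit that pairs them, with the mouse as a block, passed 40 genes (39 positive and 1 negative, smallest adjusted p = 1.4e-05). By DESeq2 without pairing, 181 passed.

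At day 8, none of these genes passed at 5 ppm against the untreated villi of that day. Gclm was at 82.3 ± 32.4 against 120.2 ± 30 CPM there (log2 fold change -0.53), Gsta2 at 301 ± 174 against 279.9 ± 104 CPM (0.11), Apob at 333 ± 126 against 279.6 ± 154 CPM (0.25) and H2-D1 at 145 ± 36.4 against 107 ± 37.7 CPM (0.43). The effect at day 91 minus that at day 8 was tested directly, and 3173 genes passed (2277 positive and 981 negative, with 85 in both, 13.1% of probes, 9.16% and 3.93% by direction), among them Gclc (difference 2.61, edgeR adjusted p = 0.000686), Gclm (2.12, 0.000641), Gsta2 (2.08, 0.0178), Apob (-2.17, 0.000912) and H2-D1 (-2.34, 0.000505). With the detected probes as a covariate 549 genes passed, and without mice 245 and 246 of day 91, 1559.

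The calls that survived the most were few. Called in the same direction with edgeR at full depth, at equal depth, with the covariate, with DESeq2 and against the low doses were 177 genes (113 up and 64 down), or 0.69% of probes, and 145 of them also passed without mice 245 and 246. The 10 with the smallest p were Abhd17b, Prr14l, Safb, Smg5, Hnrnpul2, Ero1l, Tes, Kmt2d, Capza2 and Parp4. Probes of one gene often differed. Of 846 genes with 2 probes at 30 CPM or more, 309 had the first probe called, and the second was called the same way in 81 (26.2%) and the opposite way in 17, with the same sign in 205.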

How the data were processed

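Villi and crypts were scraped from formalin-fixed sections, and RNA was measured by TempO-Seq. The authors deposited raw counts of sequencing reads for each of 30146 probes (21450 genes) in each library. Per the labels, bcl2fastq 2.17.1.14 and Bowtie were used, and the study sequenced 50-base reads and left out libraries of low depth or diversity. A genome build for the probes is not given in the sources used here. Every deposited row named a gene, with the probe number after it, and no 2 libraries held the same counts.

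Counts were fitted for all 137 libraries with edgeR 4.0.16 in R 4.3.3, using TMM scaling, filterByExpr over the 28 groups, glmQLFit and glmQLFTest without covariates. Two-sided p-values were adjusted over probes (Benjamini-Hochberg; threshold 0.1). Standard errors are the absolute log2 fold change over the square root of F. CPM are scaled to effective library sizes and given as mean ± SD over mice (n = 5 exposed and n = 4 untreated). CPM of different genes are not adjusted for probe efficiency. Total counts of all libraries ran from 1463938 to 7199801, and 3 counts are the floor used here. Rank correlations between the 9 libraries ran from 0.642 to 0.848. Within a group each library is 1 mouse. The spread behind the p-values is estimated over all 28 groups, where crypt and villus of a mouse enter as separate libraries. It is thus not the spread of the 9 libraries alone. With only the compared groups in the fit, 1506 genes passed in place of 2661.

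Genes named are the 12 that rose and the 12 that fell with the smallest p among named genes with a mean count of at least 10 in each group and ranges that do not overlap, up to 4 in each direction with at most 3 counts in every library of a group, in the lists described the 3 members with the smallest p and the most abundant, and the 10 that held across 5 fits. Other members were named after their values were seen. A gene in a list stood by the probe with the highest total count. The comparison, members and lists were chosen with earlier results of these data known.

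Alternatives were DESeq2 1.42.0, its size factors in edgeR, a dispersion for each probe, other count filters, fewer libraries in the fit, counts thinned to 1463938 (seed 1), the probes detected or the log10 total as a covariate, probes summed per gene, the mouse as a block, and each library left out. Leaving out mice 245 and 246 together was added after the data were seen. Exact permutation tests used scipy 1.17.1, and figures matplotlib 3.10.9. Promoter sequences are from RefSeq, and no sequence of the detector oligonucleotides was used here. One gene that the rule selects is not reported here.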

Additional observations from a re-analysis of the deposited data

Results flagged for a closer look

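Each of the values that follow is a difference of log2 fold changes at 5 ppm, day 91 minus day 8, that passed edgeR's test of that difference at an adjusted p under 0.1, which 78 of the 94 named genes did (57 positive and 21 negative, where 9.16% and 3.93% of all probes passed). The genes were chosen by their change at day 91, which enters the difference, and the same untreated villi of day 91 enter every one, so their number is a description. With the probes detected as a covariate, 549 genes of all passed in place of 3173.

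Of the Nrf2 targets the differences were Gclc 2.61, Gclm 2.12, Gsta2 2.08, Txnrd1 1.45, Srxn1 1.83, Gsr 1.21, Me1 1.54 and Cbr1 -1.18. Among the other genes that rose with the smallest p they were Abhd17b 2.1, Prr14l 1.85, Safb 1.88, Smg5 2.06, Hnrnpul2 1.69, Ero1l 1.13, Tes 1.72, Kmt2d 1.41, Capza2 1.56, Mtfr1 2.06, Parp4 2.09 and Ccdc59 1.57. Among those that fell they were Apob -2.17, H2-D1 -2.34, Ahcyl1 -2.28, Drosha -2.1, Sptbn1 -2.16, Clk1 -2.4, Pdcl -2.26, Cldnd1 -1.83, Srsf5 -2.13, Fam53b -2.71, Btg2 -1.47 and H2-K1 -1.92. For probes with at most 3 counts in every library of a group the fitted differences depend on the prior count and are no bound, at Mss51 8.98, Robo1 10.55, Atxn7l1 10.34, Rpl21-ps4 10.77, Il1b -9.85, Bckdk -7.66, Nsf -8.68 and Tslp 6.31. For the remaining named genes they were Tap2 -2.83, Tapbp -2.04, Fabp2 1.32, Acsl5 1.34, Mme -2.15, Enpep 2.12, Slc26a6 -1.73, Slc39a4 -1.46, Fth1 1.27, Manf 1.8, Edem1 1.58, Calr 2.03, Hspa5 0.96, Mdm2 2.61, Ei24 1.15, Gbp2 3.45, Mx1 2.93 and Irf8 1.05, and Reg3g 3.71, Psma1 2.04, Psma6 1.19, Psma3 1.84, Eif4g2 1.85, Eif4a2 1.94, Eif2s2 1.71, Eif6 0.75, Kdm2a 2.9, Jmjd6 2.5, Kdm5c 1.51, Igkc 2.05, Jchain 2.27, Nlrp6 1.63, Slc30a5 1.09, Ercc1 2.87, Polb 2.56, Xrcc4 1.86, Sdc1 4.16 and Mylk 1.7.

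Dixon's ratio, the gap of an extreme library over the range of its group, was taken in 198 groups of values. It passed the 95% critical value in 16, where chance gives about 1 in 20. Mouse 3 was highest of its group for Cybrd1 (99.7 CPM). Mouse 3 was lowest of its group for Mtfr1 (42.9 CPM). Mouse 5 was lowest of its group for Capza2 (148 CPM) and Manf (97.1 CPM). Mouse 6 was highest of its group for Ugdh (4789 CPM) and Mx1 (14.6 CPM). Mouse 7 was highest of its group for Psma6 (145 CPM) and Tslp (0.383 CPM). Mouse 241 was highest of its group for Tapbp (79.8 CPM). Mouse 245 was highest of its group for Atxn7l1 (41.8 CPM). Mouse 246 was highest of its group for Hnrnpul2 (1496 CPM), Capza2 (1140.0 CPM), Edem1 (458 CPM), Psma3 (900.0 CPM) and Eif4g2 (860.5 CPM). Mouse 246 was lowest of its group for Mgam (3763 CPM).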

How the results depend on the processing

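Untreated and exposed mice differ, so no pairing exists in the main comparison. With the mouse as a replicate block, 40 genes passed for villus minus crypt in place of 0. Those 2 tissues of a mouse come from adjacent sections.

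For 5 ppm against untreated villi, the 2661 genes became 1506 with only these libraries in the fit, 4248 with counts thinned to equal depth, 283 with the probes detected as a covariate and 736 without mice 245 and 246. Leaving out each library gave 1370 (without mouse 5) to 3399 (without mouse 241), with 1544 without mouse 246. The other fits gave 1958 to 3807. Against 0.1 and 1.4 ppm, 5315 genes became 3340 at a mean count of at least 10, 2650 with only these groups, 343 with the covariate and 229 without mice 245 and 246, and 2649 to 6497 on leaving out each library. For villus minus crypt, 181 genes passed with DESeq2, 11 with a dispersion for each probe and 5 with thinned counts, and 0 to 1 on leaving out each library. For day 91 minus day 8, 3173 genes became 5702 with a dispersion for each probe, 1639 with only these groups, 549 with the covariate and 1559 without mice 245 and 246, and 2322 to 3790 on leaving out each library. No direction of a named called gene reversed in any fit run.

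Of the 94 named genes, 82 were called. Of these, 44 lost the call with the covariate, 18 without mice 245 and 246, 14 with probes summed per gene, and 23 on leaving out at least 1 library. The difference in total counts ran from 797556 to 1401300 on leaving out each library, and that in probes detected from 4914.75 to 6003.5. The cause of these moves was not tested. Probes under 30 CPM were called less often (5.83%) than others (30.9%).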

Other observations

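Of 17 genes of gluconeogenesis and glycolysis, 5 fell and 3 rose. Those that fell were Pck1 and G6pc, which make and release glucose, the glycolytic enzymes Pkm and Tpi1, and Khk, which phosphorylates fructose. Those that rose were Pfkp and Pfkl, which commit sugar to glycolysis, and Fbp2, which acts in the reverse direction. Of 15 heat shock genes 3 rose, the chaperones Hspa4 and Hspa8 and the co-chaperone Bag3, and 1 fell, the co-chaperone Dnaja1. These genes were named after their values were seen. Of all genes, by 1 probe each, 8.83% rose and 3.04% fell, and at 30 CPM or more 23.5% and 7.92%. At that level 21.4% of 14 gluconeogenesis and glycolysis genes rose and 28.6% fell. Of 9 heat shock genes there, 33.3% rose and 11.1% fell.

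Counts for the other lists are a description, since calls depended on abundance. Of all genes 8.83% rose and 3.04% fell, and at 30 CPM or more 23.5% and 7.92%. Rising and falling members of the other lists were 15 and 5 of 78 cytosolic ribosomal proteins, 9 and 2 of 75 mitochondrial ribosomal proteins, 8 and 7 of 78 subunits of oxidative phosphorylation, 16 and 1 of 167 immunoglobulin variable segments, 2 and 2 of 19 antioxidant enzymes, 3 and 2 of 22 hypoxia-induced genes and 3 and 1 of 18 clock genes. They were 3 and 2 of 24 genes of fatty acid oxidation, 2 and 2 of 23 of cholesterol synthesis, 4 and 1 of 27 of xenobiotic metabolism, 4 and 4 of 80 cytochrome P450 genes, 0 and 2 of 22 genes of sialic acid metabolism, 4 and 4 of 26 junction genes, 5 and 1 of 20 enterocyte transcription factors, 2 and 2 of 23 immediate early genes, 2 and 0 of 14 ErbB receptors and ligands, 5 and 1 of 40 splicing factors and 2 and 0 of 30 genes of the cell cycle. By position and cell type they were 1 and 2 of 12 villus tip genes, 2 and 0 of 9 villus base genes, 1 and 2 of 12 enterocyte markers, 2 and 0 of 8 goblet, 2 and 0 of 9 tuft, 0 and 1 of 12 enteroendocrine, 0 and 2 of 15 T cell, 1 and 0 of 11 stromal and 1 and 0 of 9 mast cell and eosinophil markers. No tested member of the lists for stem cells, Paneth cells, Brunner glands, endothelium, neurons and glia, myeloid cells, red cells or alpha-defensins passed edgeR's test against untreated villi. Against 0.1 and 1.4 ppm, 8 of 10 Paneth markers and 9 of 15 alpha-defensins were higher at 5 ppm, and these lists share members. Of 12 stem cell markers 4 were higher and 1 lower there, and of 12 myeloid markers 2 were lower. In that contrast 16.8% of all probes were higher and 5.25% lower. For the largest lists, shares at 30 CPM or more were as follows. Of 64 cytosolic ribosomal proteins 21.9% rose and 6.25% fell, and of 30 mitochondrial ones 26.7% and 0%. Of 58 oxidative phosphorylation subunits 13.8% rose and 6.9% fell. Of 53 immunoglobulin variable segments 18.9% rose and 0% fell, and of 17 cytochrome P450 genes 5.88% and 17.6%. The balance of directions also moved with the fit. Of the 78 oxidative phosphorylation subunits, 7 rose and 16 fell with DESeq2 size factors in edgeR, and 8 and 22 by DESeq2. Of the 78 cytosolic ribosomal proteins, 12 rose and 9 fell with those size factors, 16 and 14 by DESeq2, and 0 and 9 with the covariate.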
